A study of Mus musculus with 12 samples.

Results

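Fc gamma receptors bind the constant part of immunoglobulin G (IgG) and let a macrophage (Mφ) sense and take up antibody-coated particles. The RNA of 8 genes of this system was examined in cardiac Mφ of the mouse, namely the activating receptors Fcgr1 (CD64), Fcgr3 (CD16) and Fcgr4 (CD16-2), the inhibitory receptor Fcgr2b (CD32B), the signalling chains Fcer1g and Tyrobp (DAP12), the kinase Syk and the neonatal Fc receptor Fcgrt (FcRn). They were chosen by gene symbol, for their role, and are 8 of the 24445 gene symbols in the count files and 8 of the 14608 genes abundant enough to be tested. All 8 passed the filter on low counts. The libraries came from 12 adult male C57BL6/J mice, 1 library per mouse, in 3 groups of 4 that all carried an implanted pump. Control (Ct) mice received saline, mice with early concentric hypertrophy (ECH) were infused for 14 days with isoproterenol (30 mg/kg/day), which stimulates β-adrenergic receptors, and mice with heart failure (HF) received the same dose for 28 days. How long the Ct mice carried their pumps is not given for each mouse in the sources used here. Live CD11b+ CD14+/CD64+ cells were sorted by flow cytometry from collagenase-digested hearts enriched for CD45+ cells, after an Fc block, a reagent that in general use is an antibody against the proteins of Fcgr3 and Fcgr2b.

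As background, Fcgr1, Fcgr3 and Fcgr4 have no signalling tail of their own and reach the surface with the chain made by Fcer1g, whose tail carries an immunoreceptor tyrosine-based activation motif (ITAM). Once IgG complexes cluster the receptors, Src family kinases phosphorylate the ITAM, and Syk docks on it and starts uptake and cytokine release. Fcgr2b carries an inhibitory motif (ITIM) that recruits phosphatases such as the product of Inpp5d (SHIP1), and the balance of activating over inhibitory receptors sets the threshold of the cell. Tyrobp is a second ITAM chain, used by TREM and related receptors, and Fcgrt rescues IgG from breakdown inside the cell. CD64 is widely used as a surface marker of tissue Mφ, the use it was put to here. Since Fcgr1 encodes CD64, its presence was required by the sort and is no finding.

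Of the 8 genes, 4 lie within a stretch of mouse chromosome 1 (GRCm38 coordinates of the GENCODE annotation), where Fcgr2b is at chr1:170958617-170976547 on the minus strand, Fcgr4 at chr1:171018920-171029761 on the plus strand, Fcgr3 at chr1:171051174-171064935 on the minus strand and Fcer1g at chr1:171229572-171234365 on the minus strand. Fcgr1 is at chr3:96282909-96293969 (minus strand), Tyrobp at chr7:30413760-30417585 (plus strand), Fcgrt at chr7:45092990-45103851 (minus strand) and Syk at chr13:52583173-52648792 (plus strand). All 8 are protein coding. Gm38204 lies antisense over Fcgr2b and Gm45669 antisense over Fcgrt, and reads of such pairs cannot be told apart without strand.

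The sequence that limits the reading of Fcgr2b and Fcgr3 is the stretch of 129 bases that their coding sequences share without a mismatch, at coding positions 278 to 406 of Fcgr2b and 263 to 391 of Fcgr3, shown here 5′ to 3′ from the GENCODE transcripts. Of all 75-base windows of the Fcgr3 transcripts, 94 of 1733 (5.42%) also occur in Fcgr2b, whereas none of the windows of Fcgr1, Fcgr4, Fcer1g, Fcgrt, Syk or Tyrobp occurs in another gene. Of the Fcgr2b windows, 156 of 5768 (2.70%) occur elsewhere. The counts of these receptors are therefore uncertain by the reads that the counting could assign to either gene.
Fcgr2b/Fcgr3: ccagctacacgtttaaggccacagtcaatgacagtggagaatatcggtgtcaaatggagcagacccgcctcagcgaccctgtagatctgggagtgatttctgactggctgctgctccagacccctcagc

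The 250 bases before the RefSeq start site (GRCm38.p6) are shown for the 3 activating receptors. Among them is Fcgr4, the member with the largest change in the main fit, and the others are its closest relatives in function. Capitals mark matches to motifs searched on both strands, namely the core GAGGAA bound by PU.1-type factors, the interferon-response-type repeat (GAAA, any 2 bases, GAAA) and the STAT-type element TTCNNNGAA. The cAMP-response element, the motif downstream of β-adrenergic receptors, was searched by its full palindrome. The windows are Fcgr4 at chr1:171018676-171018925 (plus strand), Fcgr3 at chr1:171059404-171059653 (minus strand) and Fcgr1 at chr3:96293970-96294219 (minus strand).
Fcgr4: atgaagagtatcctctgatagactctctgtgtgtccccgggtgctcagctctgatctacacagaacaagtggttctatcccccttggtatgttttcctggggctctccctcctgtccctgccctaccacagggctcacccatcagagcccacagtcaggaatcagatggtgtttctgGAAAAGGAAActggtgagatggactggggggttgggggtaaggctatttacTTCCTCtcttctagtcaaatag
Fcgr3: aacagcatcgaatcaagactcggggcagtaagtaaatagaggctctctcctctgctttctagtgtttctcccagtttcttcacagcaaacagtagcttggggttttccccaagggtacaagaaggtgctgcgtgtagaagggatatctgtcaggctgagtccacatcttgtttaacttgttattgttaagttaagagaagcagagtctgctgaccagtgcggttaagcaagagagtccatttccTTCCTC
Fcgr1: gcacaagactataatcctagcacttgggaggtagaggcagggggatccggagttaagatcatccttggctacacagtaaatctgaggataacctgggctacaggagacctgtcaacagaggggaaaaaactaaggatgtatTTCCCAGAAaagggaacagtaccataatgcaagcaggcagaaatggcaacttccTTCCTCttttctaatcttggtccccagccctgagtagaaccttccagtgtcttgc
Fcgr4 holds the interferon-response-type repeat 73 bases and the PU.1-type core, read on the other strand, 22 bases before the start. Fcgr1 holds the STAT-type element 109 bases and the PU.1-type core 55 bases before the start, and in Fcgr3 the PU.1-type core lies 6 bases before it. Among 32851 mouse windows of the same length, 23.3% held the PU.1-type core, 2.98% the repeat, 7.02% the STAT-type element and 1.55% the cAMP-response element. No window of the 7 members with an entry held the cAMP-response element, which says only that these letters are not there. Fcgr2b, Fcer1g and Fcgrt held none of the motifs, and Syk held a PU.1-type core 9 bases before 1 of its start sites. A match is a description of the letters and not a bound site.

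Sequencing depth was 88466559 to 111180291 counts per library, and the 8 genes together took 0.591 to 0.791% of them, so that the lowest member count in a library was 4644 (Fcgr4, Ct) and counting error is small beside the spread between mice. Values are given as CPM, counts scaled to library size after TMM normalization. Markers of the sorted cells (Cd14, Itgam, Adgre1, Csf1r, C1qa and others, 10 genes) summed to 33079 to 46741 CPM in every library and none of the 10 was called in a comparison. Lyz2 alone averaged 14154 CPM in Ct, so the sum can hide changes of the others. Of the 10, 2 had an unadjusted p under 0.05 in ECH vs Ct (edgeR), both higher in ECH. They were Itgam (mean 373 CPM in Ct and 709 CPM in ECH) and Mertk (117 and 317 CPM). The 8 markers of resident cardiac Mφ summed to 8141 to 12748 CPM in Ct, 10241 to 12476 CPM in ECH and 9848 to 11962 CPM in HF. Among them Timd4 was called lower in ECH (33.6 to 77.3 CPM) than in Ct (112 to 227 CPM). At an unadjusted p under 0.05 (edgeR), Folr2 was also lower and Cd163 higher in ECH than in Ct. The part of these differences in the values of the members was not tested. Markers of other leukocytes were present at lower sums and differed between groups. B cell markers (Ct 100.1 to 461, ECH 36.2 to 82.0, HF 50.7 to 77.4 CPM) and Ly6C-low monocyte markers (Ct 424 to 795, ECH 147 to 449, HF 267 to 433 CPM) were lower in ECH and HF on average, and neutrophil markers spanned 443 to 1863 CPM in Ct, 203 to 726 CPM in ECH and 163 to 1383 CPM in HF. Markers of Ly6C-high monocytes (Ct 394 to 658, ECH 555 to 733, HF 544 to 926 CPM) and of fibroblasts (Ct 29.3 to 192, ECH 90.2 to 468, HF 81.1 to 248 CPM) were higher on average in ECH and HF than in Ct, with overlap. The sums of T and NK cell, dendritic cell, mast cell, endothelial and cardiomyocyte markers were at most 241 CPM in any library. Ct library 2 and HF library 1 had the fewest detected genes (14489 and 13600, against 15054 to 15940 in the other 10). The numbers in the library names run from 1 to 6, each in 2 libraries, and were taken to mark 2 sets. An inferred split puts the 4 Ct libraries and ECH libraries 1 and 2 in a first set. ECH libraries 3 and 4 and the 4 HF libraries form the second. The numbers alone also allow other splits, and every result by set given here rests on this one. What the sets stand for is not stated. No set of this split holds both Ct and HF, so a plain comparison of HF with Ct also compares the sets. A fit adjusted for the set rests on the ECH libraries, which lie in both.

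**Figure D1:**
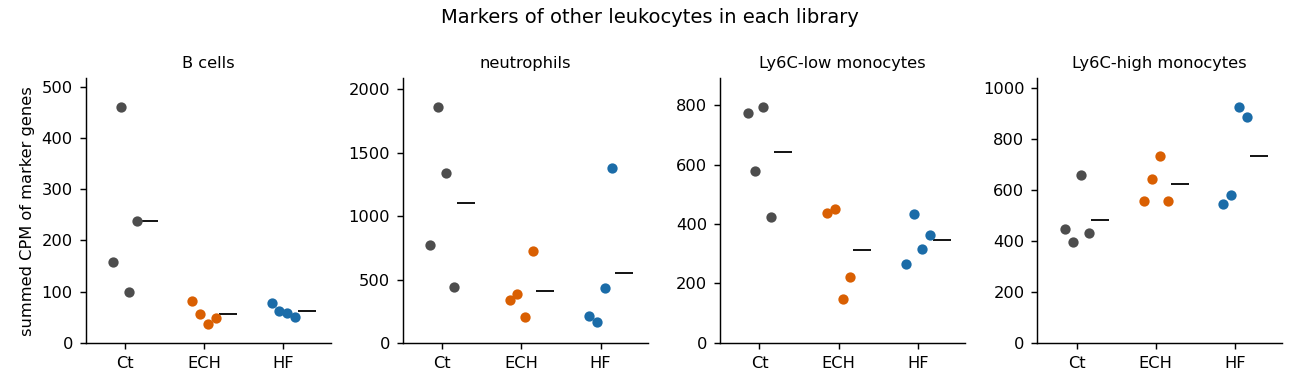
Summed TMM-normalized CPM of marker genes of B cells, neutrophils, Ly6C-low and Ly6C-high monocytes in each library, by group. Points are libraries (4 per group) and the horizontal tick is the group mean. All 4 Ct libraries lie above the ECH and HF libraries for B cell markers, whereas the groups overlap for neutrophil markers.

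The members differed widely in level when exon length was taken into account. Per kilobase of exon, Fcer1g (Ct 1571 ± 192 CPM per kb, SD, n = 4) and Tyrobp (1681 ± 439) were the most abundant and overlapped each other. Fcgr3 (863 ± 55.2) came next, followed by Fcgrt (548 ± 118) and Fcgr2b (166 ± 31.8), each separated from its neighbours in every Ct library. Fcgr1 (46.5 ± 10.4) and Fcgr4 (40.01 ± 2.77) overlapped in Ct, and Syk (21.96 ± 0.96) was the lowest. Per kilobase of the longest transcript, however, Syk (37.1 to 40.7 in Ct) overlapped Fcgr4 (37.0 to 43.7) and Fcgr1 (38.6 to 61.6). In ECH, Fcgr4 reached 84.4 ± 18.3 CPM per kb against 48.1 ± 18.4 for Fcgr1, with ranges of 66.6 to 109 and 27.6 to 70.4 that still overlapped. In HF the levels of Fcgr4 (54.3 ± 7.48) and Fcgr1 (61.5 ± 7.49) overlapped again. Both ITAM chains stood above every receptor per kilobase of exon in each library, although per kilobase of the longest transcript Fcgr3 exceeded Tyrobp in ECH library 3 (1667 against 1538 CPM per kb), and the low-affinity receptor Fcgr3 was the most abundant of the 4 Fc gamma receptors. These are levels of RNA and not of surface protein.

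**Figure D2:**
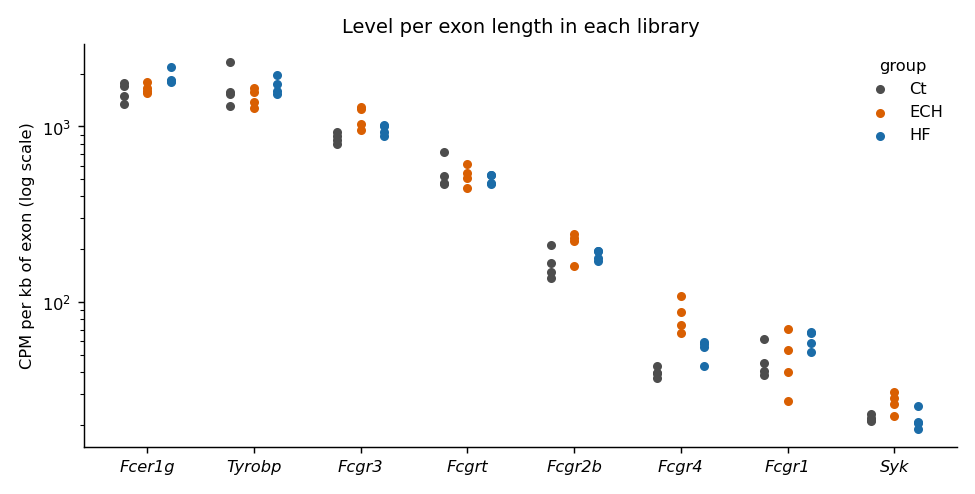
Level of each gene per kilobase of exon in each library, on a log axis, ordered by the mean over all libraries. Points are libraries coloured by group (4 each). Within each library Fcer1g and Tyrobp lie above all receptors. Across libraries the points of Tyrobp and Fcgr3 overlap (1266 for Tyrobp in ECH library 4, 1293 for Fcgr3 in ECH library 3). The ECH points lie above all Ct points for Fcgr4 and Fcgr3.

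The 3 comparisons, ECH with Ct, HF with Ct and HF with ECH, share libraries. Each was tested with edgeR's quasi-likelihood test, with adjusted p-values (FDR) by Benjamini-Hochberg over the 14608 genes, and calls required an FDR under 0.05 together with a 2-fold or larger change. In bulk RNA of sorted cells, fewer cells of a type and less RNA per cell cannot be told apart.

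In ECH Mφ, 1 of the 8 genes was called, Fcgr4, whose RNA rose 2.11-fold over Ct, beside 0.356% of all genes tested. At an unadjusted p under 0.05 there were 4 members (Fcgr4, Fcgr3, Fcgr2b and Syk, all higher in ECH), beside 11.9% of all genes. The ECH and Ct libraries did not overlap for 2 members, Fcgr4 and Fcgr3, beside 7.97% of all genes. The median log2 fold change of the 8 was 0.19, against 0.010 for all genes. With HF Mφ compared to Ct, none of the 8 was called (0.377% of all genes were), 2 had an unadjusted p under 0.05 (Fcgr4 and Fcer1g, against 16.1% of all genes) and 1 did not overlap (Fcer1g, against 9.04%). The median of the 8 was 0.16, against -0.015 for all genes. With HF compared to ECH, no gene was called by the quasi-likelihood test (0% of 14608, lowest FDR 0.338), although 7.98% of genes, 2 members among them (Fcgr4 and Syk, both lower in HF), had an unadjusted p under 0.05. Between these groups 2 members did not overlap (Fcgr4 lower and Fcer1g higher in HF), beside 6.92% of all genes. DESeq2 called 47 genes, edgeR's likelihood ratio test 48, a fit with the set as covariate 272 and a fit within the shared set 370 between HF and ECH, no member among them.

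**Figure D3:**
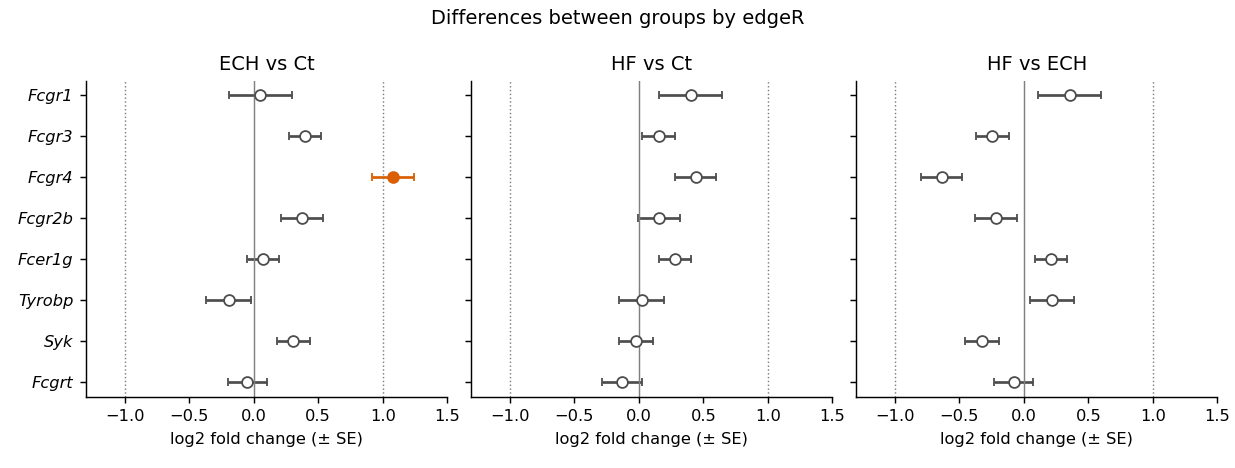
Log2 fold change of each member in the 3 comparisons by edgeR, with bars of 1 standard error. The dotted lines mark a 2-fold change and the filled orange point is the only call, Fcgr4 in ECH vs Ct at 1.08.

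Fcgr4 encodes an activating receptor of intermediate affinity that binds IgG2a and IgG2b. Its RNA stood at 46.4, 54.9, 50.1 and 49.6 CPM in the Ct libraries, at 94.0, 110.1, 136 and 83.7 CPM in ECH and at 75.2, 54.5, 69.7 and 73.3 CPM in HF. All 4 ECH libraries lay above all Ct and all HF libraries, and 3 of the 4 HF libraries lay above all Ct libraries. The ECH level was 1.08 ± 0.16 (SE) above Ct on the log2 scale (FDR 0.0143, edgeR), the 14th lowest p of all genes. HF lay 0.44 ± 0.16 above Ct (unadjusted p = 0.0160, FDR 0.217) and 0.64 ± 0.16 below ECH (unadjusted p = 0.00150, FDR 0.491), and neither passed the test. Within the set that holds Ct and ECH libraries 1 and 2 the difference was 1.01 (FDR 0.213, edgeR), and with the set as a covariate 1.02 (FDR 0.0839). The call was also lost with only the Ct and ECH libraries in the fit (FDR 0.0649), with the replicate number as a block (FDR 0.0511) and without Ct library 1 (FDR 0.0645), and the change fell below 2-fold without ECH library 3 (0.93, FDR 0.0395). The size of the difference stayed between 0.93 and 1.18 over all alternatives. Neutrophils and monocytes also carry this receptor. The mean marker sums in Ct and ECH were 1104 and 413 CPM for neutrophils, 642 and 314 CPM for Ly6C-low monocytes and 483 and 622 CPM for Ly6C-high monocytes, among whose 7 markers Ly6c2 and Chil3 were higher in all ECH than in all Ct libraries (log2 differences 1.05 and 1.61, FDR 0.310 and 0.202). Their part in the Fcgr4 result was not tested.

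**Figure D4:**
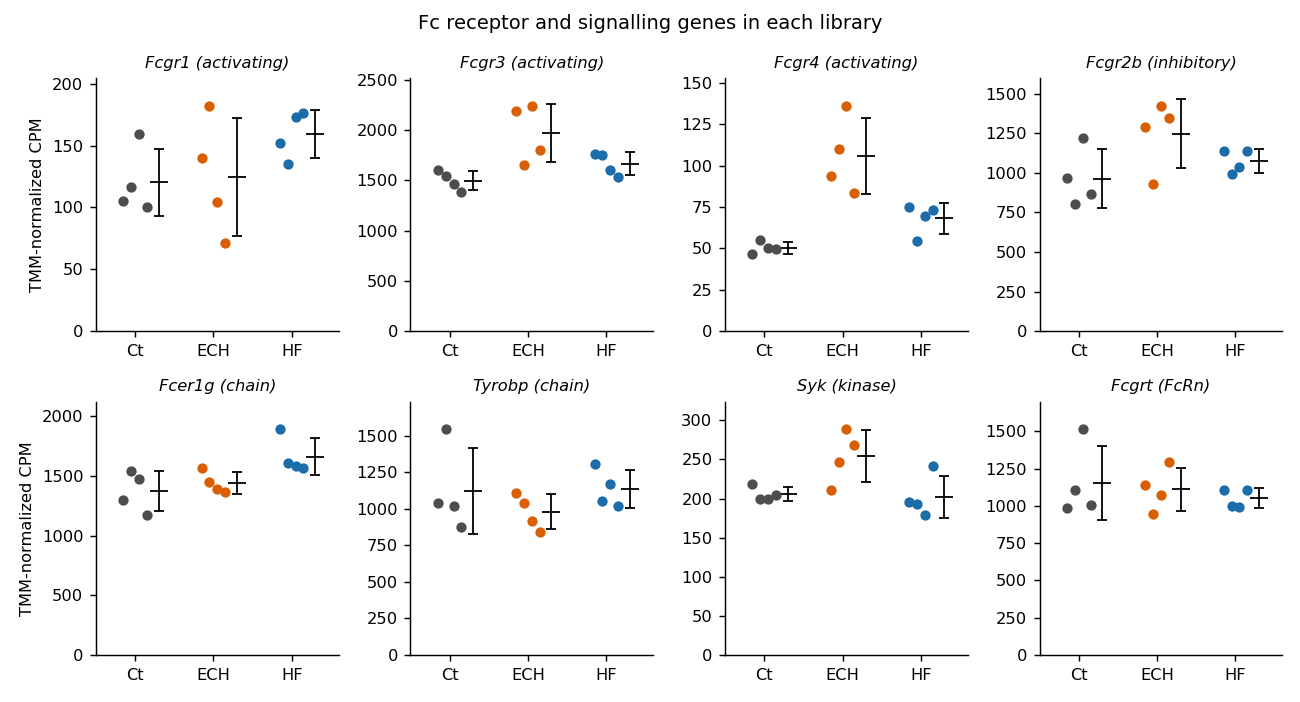
TMM-normalized CPM of each of the 8 genes in every library, by group. Points are libraries (4 per group) and bars beside them give the mean ± SD. Axes start at 0. Fcgr4 in ECH lies between 83.7 and 136 CPM, above Ct (46.4 to 54.9) and HF (54.5 to 75.2), whereas the groups of Fcgr1, Fcgrt and Tyrobp overlap.

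Fcgr3, the receptor of low affinity for IgG complexes, had the highest level of the 4 receptors. It measured 1605, 1541, 1461 and 1385 CPM in Ct, 2192, 1655, 2245 and 1799 CPM in ECH and 1763, 1757, 1608 and 1535 CPM in HF. The ECH libraries were all above the Ct libraries, though ECH library 2 exceeded Ct library 1 by little, and HF overlapped both groups. ECH exceeded Ct by 0.40 ± 0.13 on the log2 scale, a 1.32-fold difference that did not pass the test (unadjusted p = 0.00804, FDR 0.228). DESeq2 gave an FDR of 0.0449 for the same difference (0.39), below the 2-fold threshold. In the set with Ct and ECH libraries 1 and 2 it was 0.35 (FDR 0.947). HF lay 0.15 above Ct and 0.24 below ECH, and neither difference passed (FDR 0.606 and 0.669).

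Fcgr1, the high-affinity receptor, overlapped in all 3 groups. Its values were 105, 116, 159.5 and 100.01 CPM in Ct, 139.6, 182, 104 and 71.5 CPM in ECH and 152, 135, 173 and 176 CPM in HF. ECH spread the widest, with ECH library 4 the lowest and ECH library 2 the highest of all 12. The differences from Ct were 0.05 ± 0.24 in ECH (FDR 0.964) and 0.40 ± 0.24 in HF (FDR 0.447). Between ECH libraries 3 and 4 and the 4 HF libraries, which share a set, HF was 0.86 higher (FDR 0.0413), a difference of under 2-fold, against 0.35 (FDR 0.775) over all libraries. With the set as a covariate, the difference of HF from Ct was 1.27 (FDR 0.0660). Because cells were gated on CD64, these values describe cells that had passed a cut on the protein.

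Fcgr2b, the inhibitory receptor, measured 965, 802, 1219.7 and 865 CPM in Ct, 1288, 928, 1424 and 1345 CPM in ECH and 1137, 989, 1035 and 1134 CPM in HF. ECH library 2 fell among the Ct values, so the groups overlapped, and the ECH excess of 0.37 ± 0.16 did not pass (unadjusted p = 0.0389, FDR 0.385). The difference of HF from Ct was 0.16 (FDR 0.687), and it turned to -0.16 with the set as a covariate (FDR 0.841). The ratio of the summed CPM of Fcgr1, Fcgr3 and Fcgr4 to Fcgr2b, a description of the balance between activating and inhibitory RNA, was 1.78 ± 0.31 in Ct, 1.80 ± 0.27 in ECH and 1.77 ± 0.16 in HF (SD, n = 4), so the group means differed by less than the spread between mice. Within the receptor pool the share of Fcgr4 was 1.71 to 2.18% in Ct and 1.86 to 2.51% in HF, against 2.53 to 3.83% in ECH. Those ECH shares did not overlap with either other group, though the gap to HF was narrow (2.53 against 2.51%) and the share was given no test. Fcgr3 and Fcgr2b together made up most of the pool in all 3 groups. Both ratios use CPM not divided by length.

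Fcer1g encodes the ITAM chain shared by the activating receptors. It was present at 1297, 1542, 1479 and 1175 CPM in Ct, 1568, 1449, 1388 and 1363 CPM in ECH and 1893, 1607, 1585 and 1571 CPM in HF. All HF libraries exceeded all others, by a narrow gap to ECH library 1 (1571 against 1568 CPM). HF was 0.28 ± 0.12 above Ct (unadjusted p = 0.0428, FDR 0.296) and 0.21 ± 0.12 above ECH (FDR 0.723), and neither difference passed the test. ECH differed from Ct by 0.07 ± 0.12 (FDR 0.873). The ratio of Fcer1g to the summed activating receptors was 0.738 to 0.900 in Ct and 0.826 to 0.951 in HF, against 0.558 to 0.744 in ECH. ECH Mφ held less Fcer1g RNA per activating receptor RNA than HF Mφ, without overlap, in a ratio that was given no test.

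Tyrobp, the DAP12 chain of TREM-type receptors, measured 1043, 1545, 1022 and 875 CPM in Ct, 1111, 1043, 918 and 845 CPM in ECH and 1308, 1056, 1168 and 1021 CPM in HF. The groups overlapped and the highest value was that of Ct library 2. The differences were -0.20 ± 0.17 for ECH vs Ct (FDR 0.706; -0.00048 without Ct library 2), 0.02 ± 0.17 for HF vs Ct (FDR 0.969) and 0.22 ± 0.17 for HF vs ECH (FDR 0.822). Tyrobp and Fcer1g have the shortest transcripts of the 8 genes (longest 597 and 683 bases). In Ct library 2 and HF library 1, the 329 genes with a longest transcript under 1000 bases stood 1.54-fold and 1.31-fold higher relative to the 3258 genes over 4000 bases than in the average library, against 0.724-fold to 1.13-fold in the other 10. The part of transcript length in the values of these chains was not tested. Without those 2 libraries the HF excess of Fcer1g over Ct was 0.26 (FDR 0.330).

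Syk, the kinase that docks on both chains, stood at 218, 199, 199.8 and 205 CPM in Ct, 211, 247, 289 and 269 CPM in ECH and 196, 194, 179 and 241 CPM in HF. Ct libraries varied little, and 3 of the 4 ECH libraries exceeded all of them. ECH was 0.31 ± 0.13 above Ct (unadjusted p = 0.0344, FDR 0.373) and HF 0.33 ± 0.13 below ECH (unadjusted p = 0.0254, FDR 0.576). Neither passed, and HF and Ct differed by -0.02 ± 0.13 (FDR 0.960). The ECH excess was 0.15 (FDR 0.952) within the set that holds the Ct libraries, and the HF deficit 0.46 (FDR 0.0941) within the other.

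Fcgrt, which carries IgG and albumin out of the breakdown route, was expressed at 985, 1103, 1514 and 1002 CPM in Ct, 1139.8, 943, 1076 and 1291 CPM in ECH and 1107, 999, 993 and 1109 CPM in HF. All groups overlapped, Ct library 3 was the highest, and the differences from Ct were -0.05 ± 0.15 in ECH (FDR 0.935) and -0.13 ± 0.15 in HF (FDR 0.734). B2m, whose protein pairs with that of Fcgrt and with MHC class I, stood at 3051 ± 133 CPM in Ct, 3755 ± 226 in ECH and 3554 ± 191 in HF, and its ECH difference of 0.30 did not pass the test (FDR 0.270).

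Other genes of the system were read from 6 lists of 129 genes, of which 115 were tested. In ECH compared to Ct, 2 of the 115 (1.74%) were called, Fcmr and Clec4d, beside 0.356% of all genes, and 22 (19.1%) had an unadjusted p under 0.05, 8 higher and 14 lower, beside 11.9%. In HF compared to Ct, 2 (1.74%) were called, Fcmr and Clec4n, beside 0.377% of all genes, and 32 (27.8%) had an unadjusted p under 0.05, 15 higher and 17 lower, beside 16.1%. In HF compared to ECH none was called, and 15 (13%) had an unadjusted p under 0.05, beside 7.98% of all genes, while 7 were called once the set entered the model (272 of all genes) and 8 among the libraries of a single set (370 of all genes). These counts rested on single libraries: in ECH vs Ct the count was 0 without Ct library 1, Ct library 4, ECH library 3 or ECH library 4, 4 without Ct library 3 and 5 without ECH library 2, and in HF vs Ct it was 0 without Ct library 1, Ct library 4, HF library 2 or HF library 3, 1 without HF library 1 or HF library 4 and 4 without Ct library 3. The median log2 fold change of the listed genes was -0.03, -0.03 and 0.04 in the 3 comparisons. The 4 IgG heavy chain genes listed (Ighg1, Ighg2b, Ighg2c and Ighg3), which encode the ligands of the receptors, were absent from the gene symbols counted. Their RNA could therefore not be read here.

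The list of receptors around Fcer1g and Tyrobp also holds the signalling chains Hcst and Cd247 and the receptor Clec7a, which has a tail of its own, and 23 of its 27 genes were tested. Clec4d encodes the C-type lectin MCL, a partner of Mincle that signals through Fcer1g. Its RNA spanned 19.02 to 47.8 CPM in Ct, 67.2 to 134 CPM in ECH and 56.1 to 96.2 CPM in HF, so both isoproterenol groups lay above Ct. It rose 3.74-fold in ECH (log2 1.90 ± 0.31, FDR 0.0202, edgeR), while the HF difference of 1.32 had an FDR of 0.0791. Clec4n encodes Dectin-2, a receptor for fungal mannans that also uses Fcer1g. It spanned 141 to 232 CPM in Ct, 264 to 556 CPM in ECH and 329 to 524 CPM in HF. It rose 2.53-fold in HF (log2 1.34 ± 0.25, FDR 0.0361), while the ECH difference of 1.11 had an FDR of 0.0732. Between HF and ECH neither gene was called. Clec7a (Dectin-1), which signals through Syk, was lower by 0.88 in ECH and 1.02 in HF on the log2 scale without passing (FDR 0.158 and 0.0977); it is named here after its values were seen. In HF vs ECH the lowest unadjusted p-values of the list were those of Siglech (0.94, FDR 0.595) and Lilra6 (0.72, FDR 0.633).

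Among the other Fc receptors and IgG partners, 9 of 13 were tested. Fcmr, the receptor for IgM that B cells carry, fell by 2.32 on the log2 scale in ECH (FDR 0.0202) and by 2.24 in HF (FDR 0.0284), from 21.9 to 60.0 CPM in Ct to 4.78 to 9.76 CPM in ECH and 5.30 to 13.3 CPM in HF. Fcer2a (CD23), Fcrl1 and Fcrla, further receptors of B cells, had log2 differences of -2.48, -2.55 and -2.18 in ECH that did not pass (FDR 0.0843, 0.142 and 0.158); Fcrl1 and Fcrla are named after their values were seen. These genes moved with the B cell markers, of which 5 of the 6 tested had an unadjusted p under 0.05, all lower, and 1 was called, in ECH as in HF. Their summed level was 100.1 to 461 CPM in Ct, 36.2 to 82.0 CPM in ECH and 50.7 to 77.4 CPM in HF, and its part in the Fcmr result was not tested. Between HF and ECH the lowest p-values of this list were those of Fcrls (0.58, FDR 0.722) and Fcer2a (0.74, FDR 0.792).

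None of the 22 kinases and adaptors next to the receptor was called. Those with the lowest p-values in ECH vs Ct were the adaptors Blnk (-0.42, FDR 0.364) and Gab2 (0.63, FDR 0.387). In HF vs Ct they were the exchange factor Sos1 (-0.92, FDR 0.123) and the ubiquitin ligase Cbl (-0.52, FDR 0.157), and in HF vs ECH Cbl again (-0.54, FDR 0.534) and the Src family kinase Yes1, which was at 0 in all HF libraries and at or below 0.504 CPM elsewhere. Of the 35 genes of uptake and second messengers tested, none was called either. Marcks, a substrate of protein kinase C at the membrane, had a difference of -0.62 in ECH (FDR 0.142), and Ncf1, a subunit of the phagocyte oxidase, one of 0.52 (FDR 0.186). Ncf1 spanned 316 to 410.5 CPM in Ct, 385 to 611 CPM in ECH and 342 to 365 CPM in HF, and lay 0.53 lower in HF than in ECH (FDR 0.534). In HF vs Ct the lowest p-values were those of the actin regulator Cfl1 (0.49, FDR 0.204) and the exchange factor Vav2 (-0.60, FDR 0.210), and Cfl1 differed by 0.47 between HF and ECH (FDR 0.564).

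None of the 26 inhibitory receptors and phosphatases tested was called. Inpp5d, the phosphatase that acts downstream of Fcgr2b, spanned 275 to 412 CPM in Ct, 436 to 647 CPM in ECH and 320.3 to 329 CPM in HF. ECH lay above both other groups without overlap. Its differences of 0.59 ± 0.16 from Ct (unadjusted p = 0.00259, FDR 0.140) and of -0.69 ± 0.16 for HF vs ECH (unadjusted p = 0.000806, FDR 0.491) did not pass. Ptprj, a receptor-type phosphatase, lay 0.93 lower in HF than in Ct (FDR 0.0559). The collagen receptor Lair1 had a difference of -0.64 in ECH (FDR 0.276), the B cell receptor Cd22 of -1.41 in HF (FDR 0.171), and the ubiquitin ligase Cblb of -1.71 for HF vs ECH (FDR 0.534).

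**Figure D5:**
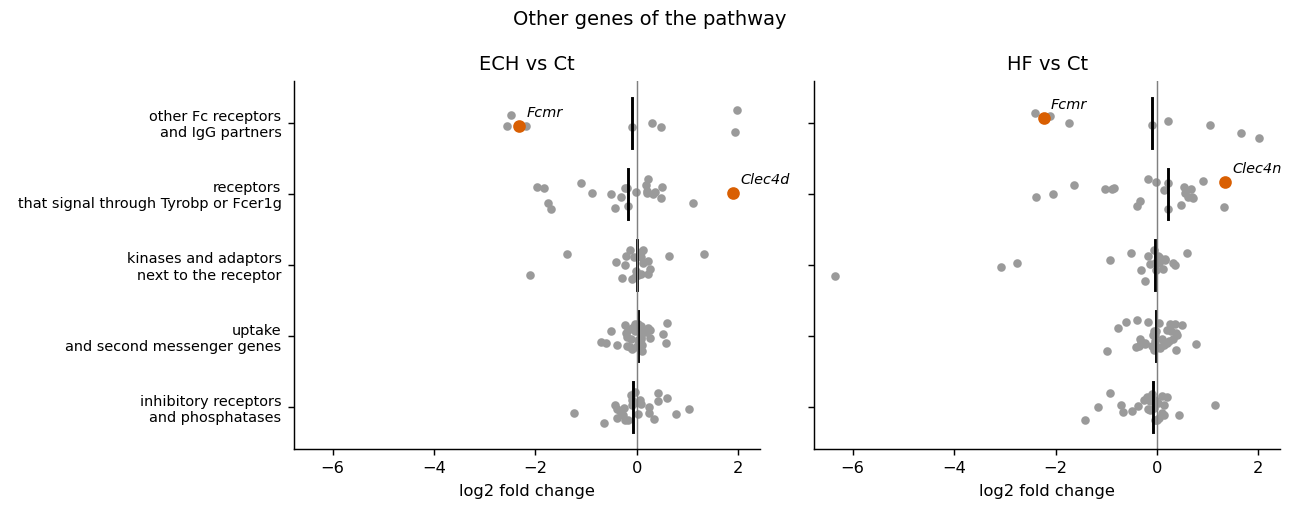
Log2 fold change of the tested genes of 5 lists in ECH vs Ct and HF vs Ct, 1 point per gene, with a black bar at the median of each list. Orange points are genes called by edgeR, namely Fcmr and Clec4d in ECH and Fcmr and Clec4n in HF. The list medians lie near 0, between -0.18 and 0.22, and the points beyond -2 among Fc receptors are genes of B cells. The point beyond -6 is Yes1, which was at 0 in all HF libraries.

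Over the 12 libraries, the gene most like each member was sought among 8640 genes with a mean of at least 10 CPM by the correlation of log2 CPM (0.1 CPM added). Libraries share group, set and depth, so the values are descriptions. Fcgr4 was most like Btbd1 (Pearson's r = 0.93, Spearman's rho = 0.89), Dnaja2 (0.89 and 0.88) and Gpt2 (0.89 and 0.84). Fcgr3 was most like Nars (0.95 and 0.92), Ms4a6b (0.94 and 0.97) and Ms4a6c (0.92 and 0.92), and Fcgr2b like Dpep2 (0.93 and 0.93), Tpst2 (0.91 and 0.90) and Snap23 (0.90 and 0.90). Fcgr1 was most like Bcl2a1a (0.95 and 0.89), Ebp (0.94 and 0.92) and Ifitm3 (0.94 and 0.91). For the chains these were Mrps36, Tmem147 and Psma3 (r = 0.97, 0.96 and 0.95) with Fcer1g and Fis1, 2310036O22Rik and Ndufa7 (r = 0.98, 0.97 and 0.97) with Tyrobp. Of the 5 of these 6 genes with a transcript length, 4 had a longest transcript under 1000 bases. Syk was most like Dr1, Glyr1 and Ube2h (r = 0.94, 0.91 and 0.91) and Fcgrt like Hopx, Tmem37 and Gpx1 (r = 0.82, 0.80 and 0.79), the weakest likeness of the 8. Among the members themselves, Fcgr4 and Fcgr3 had the highest correlation (r = 0.75, rho = 0.76), and Fcgr1 was near 0 with Fcgr4 (r = 0.07, rho = 0.17).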

How the data were processed

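RNA of sorted CD14+/CD64+ cardiac Mφ from 12 mice was analysed, 1 library per mouse and 4 mice per group, grouped by the treatment in their labels. The authors made cDNA with SMART-Seq v4 and sequenced paired reads on a NextSeq 500. Trimmomatic was used for trimming, TopHat2 for alignment to build mm10 and featureCounts for counting on genes. The deposited files hold raw counts, which the authors normalized with edgeR for their own tests. The sources used here do not state software versions, annotation or strand setting.

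Counts were fitted in R 4.3.3 with edgeR 4.0.16 in a single quasi-likelihood model of all 12 libraries with a mean per group, after filterByExpr by group and TMM scaling (14608 genes, common dispersion 0.370). Benjamini-Hochberg adjustment covered all genes tested, and a call needed an FDR under 0.05 and a 2-fold change, the thresholds of the study. The script was tested on simulated data. Alternatives were DESeq2 1.42.0, limma 3.58.1 (voom), the likelihood ratio test, RLE scaling, other filters, only the groups compared, a replicate block, the library set, and leaving out each library. Levels between genes were compared per kb of the union of GENCODE M21 exons. The limits of transcript length were set after the values were seen. No molecular identifiers were used, so depth covers counting error only.

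The 8 members and the lists were chosen with earlier results of these data known. All members are named, with the listed genes past an FDR of 0.05 and otherwise the 2 with the lowest p in each list and comparison, and the 3 genes most like each member.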

Additional observations from a re-analysis of the deposited data

Results flagged for a closer look

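Of the 24 sets of 4 libraries (8 genes in 3 groups), 1 held a library far from the other 3, where chance alone gives about 1 in 20. Fcer1g stood at 1893 CPM in HF library 1, against 1571 to 1607 CPM in the other HF libraries. That library also had the fewest detected genes (13600), and its short genes stood 1.31-fold higher relative to long genes than in the average library. The part of either in the Fcer1g value was not tested. Without Ct library 2 and HF library 1, the difference of HF from Ct for Fcer1g was 0.26 (FDR 0.330, edgeR) against 0.28 with them.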

How the results depend on the processing

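Over 24 member differences and 544 alternatives, 521 kept their direction and side of the threshold, 5 lost and 2 gained an FDR under 0.05, and 16 changed sign. The members called in ECH vs Ct numbered 0 with only the groups compared, with the replicate block, with the library set as covariate and within the library set, and 0 to 1 without a library. All 5 losses were of Fcgr4. Its FDR was 0.0511 with the replicate block, but same-numbered libraries deviated together by correlations of only -0.0758 to 0.0833, so the numbers were not taken as pairs. Listed genes called in ECH vs Ct numbered 7 by DESeq2 (of 248 among all genes), 7 by the likelihood ratio test (of 218), 0 with only the groups compared (of 8), 1 with the set as covariate (of 22), 0 within the set (of 1) and 0 to 5 without a library (of 11 to 95), against 2 of 52 in the reported fit. In HF vs Ct they numbered 10 by DESeq2 (of 336), 7 by the likelihood ratio test (of 273), 8 with the set as covariate (of 208), 1 without Ct library 2 and HF library 1 (of 44) and 0 to 4 without a library (of 15 to 103), against 2 of 55, and in HF vs ECH 7 with the set as covariate (of 272) and 8 within the set (of 370), against 0 of 0. The cause was not tested. Sign changes were 0.0086 by limma-voom for Fcgrt in ECH vs Ct and -0.16 with the set as covariate for Fcgr2b in HF vs Ct. Without a library, Fcgr1 ranged from -0.19 to 0.24 and Fcgrt from -0.13 to 0.11 in ECH vs Ct, and Syk from -0.12 to 0.035, Tyrobp from -0.079 to 0.22 and Fcgrt from -0.20 to 0.031 in HF vs Ct. Depth limited no member, the lowest count being 4644.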
